A study of Mus musculus with 26 samples.

Results

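This section covers mammary fat pad fibroblasts grown together with macrophages, and asks which of their genes differed between medium conditioned by tumour cells and plain medium. 7 of the 26 libraries of the series were compared, taken from the sample labels: 4 co-cultures in 4T1-conditioned medium (4T1 CM) against 3 co-cultures in DMEM, over all genes listed. 4T1 is a mouse mammary carcinoma line, and its conditioned medium carries what those cells secrete. The fibroblasts came from normal mammary fat pads of BALB/c mice aged 8 weeks, 2 females per replicate, were expanded in culture and were depleted of CD45+ and EpCAM+ cells with magnetic beads. The macrophages were grown from bone marrow of the same strain. Both cell types were seeded at 300000 cells on collagen I, in DMEM with 10% FBS or in 4T1 CM, and part of the medium was replaced every 3 days. After 7 days, 10000 fibroblasts were sorted as live cells negative for F4/80 and CD11b, and their messenger RNA was sequenced from the 3' end. No group carries a gene deletion or transgene. The labels do not say whether 4T1 CM was made in the same DMEM with serum, whether it was diluted, or whether cultures of the 2 media shared mice, so p-values measure the spread between these libraries only. Mono-cultured fibroblasts in 4T1 CM (n = 2) and in DMEM (n = 3), whose day of harvest the labels do not give, served for a further comparison.

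Fibroblasts build the extracellular matrix, and they also secrete proteases that cut it, growth factors and chemokines. When fibroblasts meet inflammatory signals, transcription factors of the NF-κB, AP-1 and C/EBP families switch on chemokines that draw neutrophils, cytokines such as interleukin 6, and matrix metalloproteinases. In mammary tumours, fibroblasts with such an inflammatory programme are described beside contractile fibroblasts that make much matrix.

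Values are reads per gene divided by 1 size factor per library (normalized reads), and changes are log2 fold changes ± SE of the value plus a pseudocount of 1, 4T1 CM against DMEM, from limma. Adjusted p-values are Benjamini-Hochberg over the 12401 genes tested, and a gene is called changed when its adjusted p is under 0.05. Of these genes 725 were called, or 5.85%: 289 were higher in 4T1 CM (2.33%) and 436 were lower (3.52%). Without DMEM replicate 1 the count was 258, and without replicate 1 in 4T1 CM it was 470. Whether or not they were called, 875 genes (7.06%) had all libraries in 4T1 CM above all in DMEM and 1132 (9.13%) had all below. The co-culture libraries held 3283626 to 4933176 reads, 3710780 to 4933176 in 4T1 CM and 3283626 to 4329357 in DMEM. In a principal component analysis of the 7 libraries the first component (45.3% of the variance) separated the media. The next component (19.1%) separated replicates 1 and 2 in 4T1 CM from replicates 3 and 4, so several genes below are given with these pairs apart. The fibroblast genes Col1a2, Vim and Pdgfra were detected in all 7 libraries. Pdgfra, a receptor by which fibroblasts are recognised, gave 393, 376, 538 and 479.8 normalized reads in 4T1 CM and 733, 641 and 434 in DMEM and did not pass the test (log2 fold change -0.41 ± 0.18, adjusted p = 0.223).

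RNA of macrophage markers was higher in the fibroblasts sorted from the DMEM co-cultures. The macrophage share was estimated as the median, over 24 macrophage markers, of the marker's level in percent of its level in the macrophages taken from co-cultures of that medium. The share was 0.290%, 0.476%, 0.0111% and 0.0150% in 4T1 CM and 0.751%, 0.886% and 1.76% in DMEM, so the groups did not overlap (0.198% ± 0.227, SD, n = 4, against 1.13% ± 0.548, SD, n = 3; exact two-sided permutation p = 0.0571, the smallest that 4 against 3 allows). The same estimate in fibroblasts cultured without macrophages gave 0.165% and 0.148% in 4T1 CM and 0.0222%, 0.0312% and 0.00960% in DMEM. Replicates 3 and 4 of the co-cultures in 4T1 CM were thus below the mono-cultures in that medium, and all 3 co-cultures in DMEM were above every mono-culture. Of 25 macrophage markers tested, 19 were lower in 4T1 CM and none was higher. Their summed level was 509 to 1662 normalized reads in 4T1 CM and 3345 to 7127 in DMEM. In replicates 3 and 4 in 4T1 CM, Itgam, Spi1, Mpeg1 and Ptprc were at 0, but not all markers were. Csf1r gave 54.7 and 49.98 there and Cd68 25.2 and 40.8. Cd14 gave 96.5 and 70.8, above DMEM replicates 1 and 2 (54.6 and 64.4). The 546 genes tested that are at least 4 times higher in macrophages than in mono-cultured fibroblasts are called macrophage-enriched here. Of them 87 (15.9%) were lower and 7 (1.28%) higher in 4T1 CM, while of the other 11855 genes 631 (5.32%) were called, 349 (2.94%) were lower and 282 (2.38%) higher. In libraries of sorted cells, fewer cells of a type and less RNA per cell cannot be told apart.

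**Figure D1:**
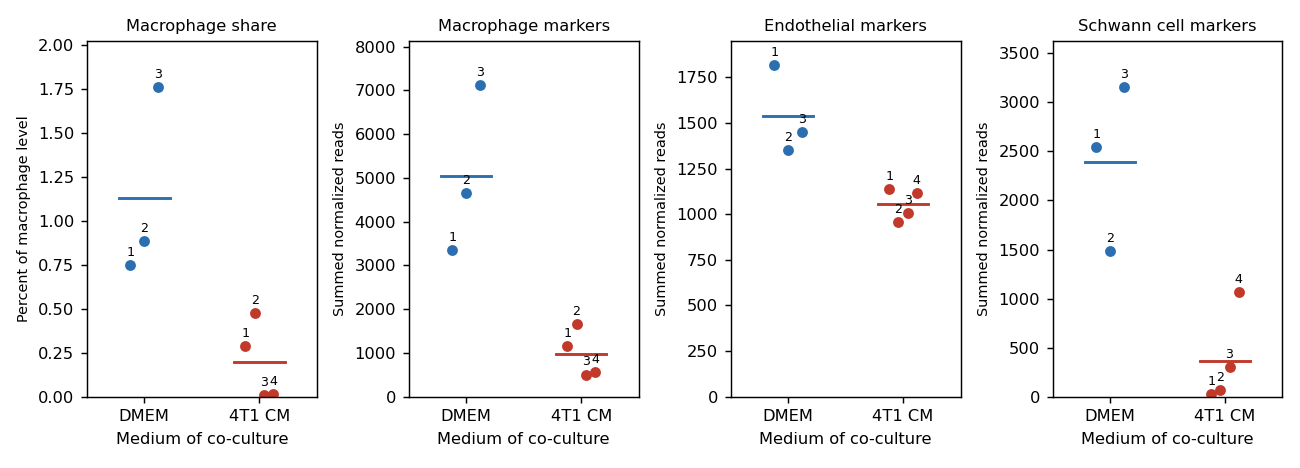
Macrophage share (percent of the level in sorted macrophages, left panel) and summed normalized reads of macrophage, endothelial and Schwann cell markers (other panels) in each co-cultured fibroblast library, with replicate numbers; lines are means. All 3 DMEM libraries lie above all 4 libraries in 4T1 CM in each panel, and the Schwann cell sum differs widely among replicates in 4T1 CM.

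The promoters below are shown because neutrophil chemokines and secreted metalloproteinases rose together in 4T1 CM, and both groups are textbook targets of the factors named above. Cxcl5 and Mmp9, which also rose, had no entry in the promoter table. Each stretch runs from 110 bases before to 20 bases after the RefSeq transcription start on GRCm38.p6 (mm10), 5′ to 3′ in the direction of the gene, and all 6 genes lie on the plus strand. The 3 chemokine stretches are chr5:90891135-90891264 (Cxcl1), chr5:90903789-90903918 (Cxcl2) and chr5:90785991-90786120 (Cxcl3). The 3 metalloproteinase stretches are chr9:7445712-7445841 (Mmp3), chr9:7502232-7502361 (Mmp10) and chr9:7272404-7272533 (Mmp13). In the chemokine genes capitals mark matches to the κB consensus, the degenerate 10-base site bound by NF-κB.
Cxcl1: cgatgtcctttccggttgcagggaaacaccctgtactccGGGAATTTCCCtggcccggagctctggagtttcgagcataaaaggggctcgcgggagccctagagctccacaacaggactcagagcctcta
Cxcl2: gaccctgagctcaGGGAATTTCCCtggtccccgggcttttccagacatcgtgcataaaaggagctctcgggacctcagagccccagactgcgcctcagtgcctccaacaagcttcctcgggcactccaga
Cxcl3: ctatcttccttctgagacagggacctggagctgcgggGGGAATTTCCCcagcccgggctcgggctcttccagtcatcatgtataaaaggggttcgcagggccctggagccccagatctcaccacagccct
In the metalloproteinase genes capitals mark matches to TGANTCA, the site bound by AP-1.
Mmp3: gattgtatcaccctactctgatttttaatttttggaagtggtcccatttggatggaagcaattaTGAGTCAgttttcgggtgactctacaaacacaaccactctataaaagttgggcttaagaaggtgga
Mmp10: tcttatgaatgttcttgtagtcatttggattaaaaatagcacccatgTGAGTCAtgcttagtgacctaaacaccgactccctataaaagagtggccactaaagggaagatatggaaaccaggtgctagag
Mmp13: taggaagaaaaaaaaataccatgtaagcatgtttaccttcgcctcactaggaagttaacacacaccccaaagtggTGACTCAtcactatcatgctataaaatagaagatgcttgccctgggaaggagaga
Both strands were searched. Cxcl1, Cxcl2 and Cxcl3 each held 2 overlapping κB matches shifted by 1 base and read on opposite strands, which form 1 nearly symmetrical site that starts 71, 97 and 73 bases before the start. Mmp3, Mmp10 and Mmp13 held 1 match each to the AP-1 site, at 46, 63 and 35 bases before the start. Over the whole 300 bases given per gene, the κB consensus was held by 4.35% and TGANTCA by 7.93% of 27025 genes. Among called genes with a promoter in the table, the κB consensus was held by 16 of 226 higher genes (7.08%) and 23 of 305 lower genes (7.54%), against 5.24% of all 9817 tested genes with a promoter. TGANTCA was held by 21 of 226 higher genes (9.29%) and 18 of 305 lower genes (5.90%), against 4.88% of the tested genes. A match describes the letters only.

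Genes that attract neutrophils rose in 4T1 CM. Of 5 CXC chemokines tested, 4 rose and none fell, with a median log2 fold change of 2.82 against -0.01 over all 12401 genes tested. That is 80% higher, against 2.33% of all genes tested. Cxcl3 stood at 189, 454, 533 and 219 normalized reads in 4T1 CM and at 8.96, 24.9 and 14.5 in DMEM (log2 fold change 4.32 ± 0.44, adjusted p = 0.000132). Every library in 4T1 CM was above every library in DMEM. Cxcl5 gave 1418, 1912, 3959.8 and 2183 against 304, 292 and 174 normalized reads (log2 fold change 3.14 ± 0.32, adjusted p = 0.000132), and replicate 3 in 4T1 CM was the highest library. Cxcl1, a main ligand of the neutrophil receptor CXCR2 in mice, gave 376, 685, 957 and 626 against 117, 196 and 28.95 (log2 fold change 2.82 ± 0.53, adjusted p = 0.00769). For Cxcl5 and Cxcl1 the groups did not overlap. Cxcl2 was low, at 34.5, 50.7, 54.7 and 25.8 against 5.37, 11.4 and 2.41 (log2 fold change 2.65 ± 0.50, adjusted p = 0.00781), and is macrophage-enriched; macrophage RNA at the estimated share would supply 1.64 of its 6.41 normalized reads in DMEM. These 4 calls held without each co-culture library in turn.

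Among 14 other chemokines tested, Ccl2 rose and Ccl12 fell (14.3% called, against 5.85% of all genes tested). Ccl2, which attracts monocytes, gave 1249.6, 1392, 3163 and 3109 against 592, 1200.3 and 580.3 (log2 fold change 1.45 ± 0.33, adjusted p = 0.0189): replicates 3 and 4 in 4T1 CM were higher than replicates 1 and 2, and without DMEM replicate 1 or 3 the call was lost (adjusted p = 0.106 and 0.0744). Ccl12, a macrophage-enriched chemokine of the same kind, gave 1.04, 0, 0 and 0 against 2.69, 7.27 and 12.1, and was lost without replicate 2 in 4T1 CM (adjusted p = 0.0503). It passed the filter on low values only through DMEM replicates 2 and 3, and without either it was not tested. Of 14 cytokines tested 6 rose (42.9%, against 2.33% of all genes tested) and none fell (median 0.79). Il6 gave 46.98, 62.3, 78.2 and 112 against 8.06, 17.7 and 14.5 (log2 fold change 2.39 ± 0.39, adjusted p = 0.00289), with no overlap. Il11, a cytokine of the same family that fibroblasts make under TGF-β, gave 58.5, 47.3, 37.4 and 45.8 against 15.2, 11.4 and 20.5 (log2 fold change 1.55 ± 0.29, adjusted p = 0.00684). Csf3, the granulocyte colony-stimulating factor, was listed at 0 to 1.04 normalized reads in DMEM and at 10.4, 25.7, 7.82 and 5.83 in 4T1 CM (log2 fold change 2.89 ± 0.55, adjusted p = 0.00776).

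Csf1, on which macrophages depend for survival, was abundant in both media, at 9297, 8605, 8093 and 8611 against 3842, 5944 and 5821 (log2 fold change 0.76 ± 0.17, adjusted p = 0.0153). Clcf1, another cytokine that signals through gp130, rose less, by 0.82 ± 0.17 (adjusted p = 0.0127), and Tslp, an epithelial and stromal cytokine, rose from 1.79, 5.20 and 0 to 11.5, 14.9, 10.4 and 12.5. Without DMEM replicate 1 the calls of Csf1, Clcf1 and Tslp were lost (adjusted p = 0.0785, 0.0786 and 0.07), and that of Tslp also without DMEM replicate 3 or replicate 2 in 4T1 CM (0.0632 and 0.0525). That left 3 of the 6 cytokine calls. Lif, of the same gp130 family, gave 597, 1326, 242 and 152 in 4T1 CM against 75.2, 173 and 86.9 in DMEM and did not pass (log2 fold change 1.98 ± 0.56, adjusted p = 0.055).

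Genes of the acute phase response were among the largest rises. Lcn2, which encodes the iron-scavenger carrier lipocalin 2 (chromosome 2, 32384633 to 32388252, minus strand, mm10), gave 318, 281, 707 and 504 against 6.27, 20.8 and 21.7 (log2 fold change 4.79 ± 0.55, adjusted p = 0.000331), the largest rise among the genes not macrophage-enriched that met the rule for naming genes. Saa3, a serum amyloid A gene, gave 1839, 1088, 11456 and 8985 against 298, 267 and 287 (log2 fold change 3.73 ± 0.63, adjusted p = 0.00372): replicates 3 and 4 in 4T1 CM were far above replicates 1 and 2, and all 4 were above DMEM. Cebpb, the C/EBP factor that acts on both, gave 3011, 3778, 3400.2 and 2709 against 1049.6, 1272 and 1480.2 (log2 fold change 1.35 ± 0.17, adjusted p = 0.000477). Those 3 genes were the calls among 13 of the list (23.1%, against 5.85% of all genes tested), whose median was 0.01. All 3 held without each library in turn. Of 15 complement genes 13.3% were called, against 5.85% of all genes tested. Cd55, a cell-surface inhibitor of complement, rose by 1.66 ± 0.36 (adjusted p = 0.0143) and was lost without DMEM replicate 2 or 3 (0.0597 and 0.0564). Cfp, properdin, fell by -0.96 ± 0.23 (adjusted p = 0.0242), was lost without DMEM replicate 1 or 3 (0.0872 and 0.0983), and macrophage RNA at the estimated share would supply 65.02 of its 112 normalized reads in DMEM.

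**Figure D2:**
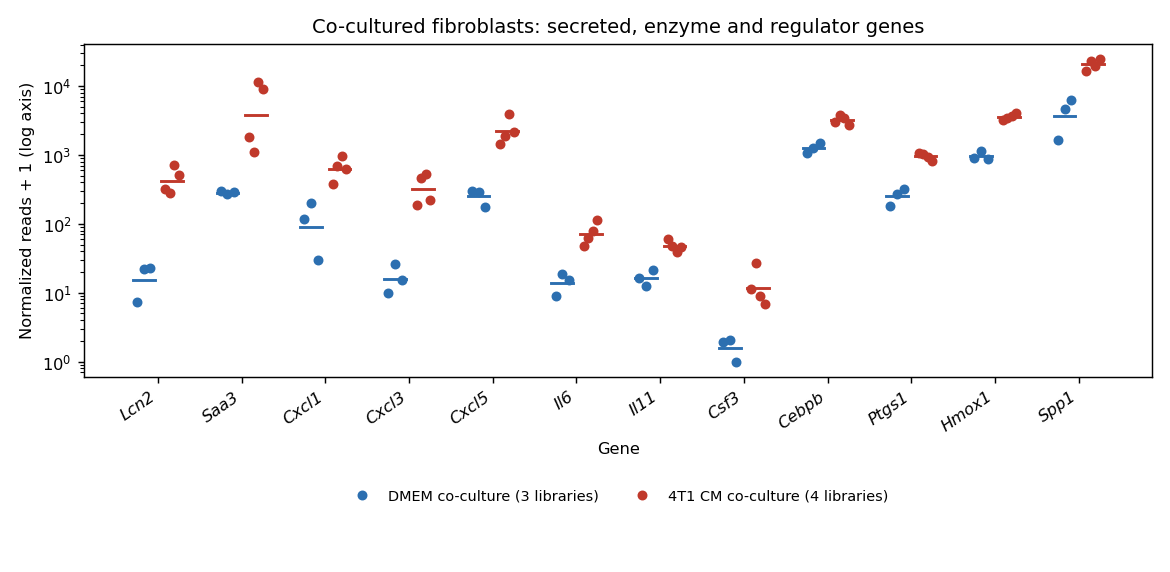
Normalized reads plus 1 (log axis) of 12 secreted, enzyme and regulator genes in each co-cultured fibroblast library, with lines at the mean of the log values. In each of the 12 genes all 4 libraries in 4T1 CM (right of each pair) lie above all 3 in DMEM.

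Regulators of these genes rose in part. Of 16 NF-κB subunits and feedback genes tested, Relb, Nfkbiz and Ikbke rose and none fell (median 0.25). That is 18.8% higher, against 2.33% of all genes tested. Relb, a subunit of the non-canonical branch, gave 281, 267, 229 and 178 against 124, 137 and 136 (log2 fold change 0.82 ± 0.16, adjusted p = 0.00955), and Nfkbiz, a co-activator of Lcn2 and Il6, gave 168, 174, 118 and 137 against 49.3, 80.02 and 76.00 (log2 fold change 1.13 ± 0.29, adjusted p = 0.0328). All 3 calls were lost without DMEM replicate 1 (adjusted p = 0.0544, 0.185 and 0.164). Nfkbiz was also lost without either other DMEM library or without replicate 1 or 2 in 4T1 CM (0.0548 to 0.185 over the 5), and Ikbke without any library but replicate 4 in 4T1 CM (0.0574 to 0.164). Nfkbia, the inhibitor that NF-κB itself induces, did not pass in co-culture (log2 fold change 0.36 ± 0.23, adjusted p = 0.453).

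Of 31 AP-1 and immediate early genes, 4 rose (12.9%, against 2.33% of all genes tested) and none fell (median 0.21). Fosl1, an AP-1 subunit also known as FRA1, gave 937, 1201, 815 and 632 against 227, 328 and 407 (log2 fold change 1.48 ± 0.22, adjusted p = 0.00189) with no overlap. Etv4, an ETS factor downstream of receptor kinases, rose by 1.91 ± 0.38 (adjusted p = 0.00941), and was not called without DMEM replicate 1 (adjusted p = 0.055). Phlda1 (without replicates 1 or 2 in 4T1 CM, or replicates 1 or 3 in DMEM, 0.0876 to 0.205) and Maff (without any library but replicate 3 in 4T1 CM, 0.0564 to 0.247) were lost more often.

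The pathway from membrane lipid to prostaglandin E2 was higher at several steps. Of 13 genes tested 4 rose (30.8%, against 2.33% of all genes tested) and none fell (median 0.49). Pla2g4a, the phospholipase that frees arachidonic acid, rose by 1.09 ± 0.17 (adjusted p = 0.00248). Ptgs1 and Ptgs2 are the cyclooxygenases: Ptgs1 gave 1061, 1026, 919 and 823 against 181, 266 and 325 (log2 fold change 1.93 ± 0.23, adjusted p = 0.000415), and Ptgs2 351, 543, 246 and 103 against 29.6, 103 and 47.05 (log2 fold change 2.31 ± 0.52, adjusted p = 0.0182). Ptges, the synthase of prostaglandin E2, gave 443, 601, 421 and 337 against 249.9, 204 and 205 (log2 fold change 1.01 ± 0.17, adjusted p = 0.00362). The Ptgs2 libraries met at 103 normalized reads, replicate 4 in 4T1 CM against replicate 2 in DMEM, and its call was lost without DMEM replicate 1 or 3 or replicate 1 in 4T1 CM (0.0543 to 0.111). The other 3 held.

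Among growth factors, ligands that act on epithelium rose and Pdgfb and Pdgfd fell. Of 27 growth factors tested 5 rose and 3 fell (29.6% called, against 5.85% of all genes tested, median 0.50). Fgf7, the keratinocyte growth factor, gave 984, 902, 838 and 1161 against 242, 223 and 276 (log2 fold change 1.96 ± 0.23, adjusted p = 0.000415). Ereg, the EGF receptor ligand epiregulin, gave 87.7, 106, 47.8 and 46.7 against 2.69, 11.4 and 9.65 (log2 fold change 3.12 ± 0.49, adjusted p = 0.00234). For Fgf7 and Ereg every library in 4T1 CM was above every library in DMEM. Pdgfb gave 5.22, 4.15, 1.74 and 6.66 against 101, 59.2 and 97.7 (log2 fold change -4.06 ± 0.36, adjusted p = 6.64e-05). It is macrophage-enriched, and macrophage RNA at the estimated share would supply 1.57 of its 86.1 normalized reads in DMEM. Endothelial markers, given further on, were lower in the same libraries, and their part in this fall was not tested. Pdgfd gave 5.22, 9.13, 17.4 and 15.8 against 97.6, 44.7 and 36.2 (log2 fold change -2.22 ± 0.41, adjusted p = 0.00673).

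Fgf10 and Vegfa rose and Igf1 fell, each resting on single libraries. Fgf10 was not called without replicate 1 or 3 of either medium (0.0695 to 0.121), Vegfa without any of 5 libraries, those of DMEM and replicates 1 and 2 in 4T1 CM (0.0595 to 0.193), and Igf1 without replicates 1 or 2 in 4T1 CM or 1 or 3 in DMEM (0.0625 to 0.205). 

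In the TGF-β and BMP list of 26, 3 genes rose and 4 fell (median 0.27). That is 26.9% called, against 5.85% of all genes tested. Tgfbr2, the type II receptor of TGF-β, gave 362, 371, 401 and 372 against 1354, 735 and 584 (log2 fold change -1.15 ± 0.22, adjusted p = 0.00876). Ltbp2 rose by 1.37 ± 0.27 (adjusted p = 0.00955) and was lost without DMEM replicate 1 (0.0628), as were Tgfb2, which fell by -2.07 ± 0.42 (adjusted p = 0.0111) (0.0577, and 0.0577 without replicate 2), and Tgfb3 (0.112, 0.0664 without DMEM replicate 2 and 0.0547 without replicate 1 in 4T1 CM). Tgfb1 rose and Bmp1, a procollagen C-proteinase, fell. Tgfb1 was lost without any library but replicate 3 in 4T1 CM (0.062 to 0.189), and Bmp1 without DMEM replicate 2 or 3 or replicate 1 in 4T1 CM (0.0501 to 0.0742).

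Of the WNT and IGF lists most members did not pass. Of 16 IGF axis genes, Stc1 rose and 4 fell (31.25% called, against 5.85% of all genes tested, median -0.84). Igfbp3, the main circulating IGF-binding protein, gave 200.4, 172, 746 and 456 against 3442, 2498 and 953 (log2 fold change -2.61 ± 0.46, adjusted p = 0.00515), and replicates 3 and 4 in 4T1 CM were above replicates 1 and 2. Stc1, a secreted glycoprotein that inhibits the protease PAPP-A, gave 267, 179, 222 and 161 against 45.7, 39.5 and 83.2 (log2 fold change 1.91 ± 0.27, adjusted p = 0.000966). Igfbp4 fell but was lost without replicate 1 or 2 of either medium (0.0502 to 0.184). Igf1 fell but was lost without replicate 1 or 2 in 4T1 CM or 1 or 3 in DMEM (0.0625 to 0.205), and Igfbp2 without replicate 1, 3 or 4 in 4T1 CM or 1 or 2 in DMEM (0.0583 to 0.202). Of 17 WNT genes Frzb and Wnt11 rose and Sfrp1, Sfrp2 and Fzd2 fell (median -0.65). That is 29.4% called, against 5.85% of all genes tested, and without DMEM replicate 1 none of the 5 was called (0.0654 to 0.212). Sfrp2 and Sfrp1 encode secreted proteins that bind WNT ligands. Sfrp2 gave 33.4, 13.3, 241 and 60.8 against 1306, 292 and 366 (log2 fold change -3.32 ± 0.74, adjusted p = 0.0174) and Sfrp1 1052, 439, 3339 and 2864 against 9737, 4822 and 4327 (log2 fold change -2.02 ± 0.54, adjusted p = 0.0422), both with replicate 3 in 4T1 CM as the highest of its group.

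Enzymes that cut matrix rose in part. Of 12 matrix metalloproteinases tested, Mmp3, Mmp9, Mmp10 and Mmp13 rose and Mmp15 and Mmp17, both membrane-bound, fell. That is 50% called, against 5.85% of all genes tested. Mmp3, stromelysin 1, gave 1297, 1935, 837 and 1314 against 52.8, 209 and 85.7 (log2 fold change 3.70 ± 0.38, adjusted p = 0.000132). Mmp9, gelatinase B (chromosome 2, 164940780 to 164955850, plus strand, mm10), gave 613, 807, 1471 and 778 against 123, 129.9 and 109.8 (log2 fold change 2.84 ± 0.24, adjusted p = 6.64e-05). Mmp10, stromelysin 2, was near 0 in DMEM, at 0, 1.04 and 2.41, and at 33.4, 62.3, 15.6 and 22.5 in 4T1 CM (log2 fold change 3.99 ± 0.49, adjusted p = 0.000477). Mmp13, an interstitial collagenase, gave 40.7, 84.7, 10.4 and 14.2 against 0, 3.12 and 1.21 (log2 fold change 3.75 ± 0.77, adjusted p = 0.0112). In each of these 4 the groups did not overlap, and for Mmp3, Mmp10 and Mmp13 replicate 2 in 4T1 CM was highest. The calls of Mmp13, Mmp15 and Mmp17 were lost without DMEM replicate 1 (adjusted p = 0.0694, 0.0642 and 0.111), and that of Mmp17 also without DMEM replicate 3 or replicate 2 in 4T1 CM (0.0833 and 0.0533). Mmp2, gelatinase A, and Mmp14, its membrane-bound activator, did not pass (0.33 and -0.57, adjusted p = 0.493 and 0.0603).

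Inhibitors of proteases and genes of the plasminogen system moved too. Of 19 tested 7 rose and 2 fell (47.4% called, against 5.85% of all genes tested, median 0.34). Timp1, an inhibitor of metalloproteinases, gave 12314, 19419.5, 13307 and 16468 against 3989.6, 6337 and 5834 (log2 fold change 1.52 ± 0.19, adjusted p = 0.000553), while Timp3, the member that binds the matrix, gave 83.5, 169, 248 and 222 against 2144, 1784 and 616 (log2 fold change -2.99 ± 0.39, adjusted p = 0.000724). The 2 genes of this family thus moved in opposite directions in the same libraries. Thbd, the thrombin receptor thrombomodulin, gave 676, 835, 623 and 469.8 against 102, 136 and 191 (log2 fold change 2.20 ± 0.23, adjusted p = 0.000149), and Plaur, the urokinase receptor, rose by 1.17 ± 0.18 (adjusted p = 0.00196). Serpinb2, plasminogen activator inhibitor 2, gave 1432, 3288, 210.3 and 174 against 17.02, 49.9 and 15.7 (log2 fold change 4.70 ± 1.00, adjusted p = 0.0141): replicates 1 and 2 in 4T1 CM were far above replicates 3 and 4, and all 4 were above DMEM. It was not called without DMEM replicate 1 or 3 (0.0715 and 0.0519). A2m, a broad protease inhibitor, fell and was lost without DMEM replicate 1 (0.0519). Tfpi2 and Procr rose by 1.08 and 1.29 (adjusted p = 0.0045 and 0.00501).

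Of 16 ADAM and ADAMTS proteases 2 rose and 3 fell (31.25% called, against 5.85% of all genes tested). Adamts1, which cleaves versican, gave 151, 96.3, 134 and 183 against 519, 350.2 and 335 (log2 fold change -1.51 ± 0.21, adjusted p = 0.000966). Adamts2, the procollagen N-propeptidase, gave 189, 112, 145 and 181 against 569.6, 366 and 285 (log2 fold change -1.34 ± 0.23, adjusted p = 0.00415), and Adamts7 rose by 0.75 ± 0.14 (adjusted p = 0.00768). Adamts15 and Adam33 were lost without DMEM replicate 1 (0.0776 and 0.0586), and Adam33 also without DMEM replicate 2 or replicate 2 or 3 in 4T1 CM (0.0561 to 0.0855 over the 4).

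Collagen genes were lower in 4T1 CM where they changed. Of 29 tested 12 fell (41.4%, against 3.52% of all genes tested) and none rose (median -0.44). The summed level of all 30 listed was 69476 to 85909 normalized reads in 4T1 CM and 106571 to 137982 in DMEM. Col14a1, which decorates collagen fibrils, gave 10.4, 1.66, 3.48 and 10.8 against 365, 143 and 74.8 (log2 fold change -4.65 ± 0.58, adjusted p = 0.000477). Col18a1, a basement membrane collagen, gave 289, 210.1, 298 and 619.8 against 1935, 1095 and 1819 (log2 fold change -2.26 ± 0.30, adjusted p = 0.00068), and Col8a1, a short-chain collagen, 101, 92.2, 171 and 239 against 705, 455 and 291 (log2 fold change -1.69 ± 0.32, adjusted p = 0.00768). Col27a1 and Col28a1 fell by -1.43 ± 0.21 (adjusted p = 0.00167) and -2.45 ± 0.38 (adjusted p = 0.00224). In these 5 genes the groups did not overlap and every call held without each library in turn.

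The other 7 collagen calls were Col3a1, Col4a5, Col5a1, Col6a1, Col6a2, Col6a3 and Col15a1, and none held without DMEM replicate 1, the library with the highest level of each (adjusted p = 0.0553 to 0.196). Of these, Col3a1 is the second fibril-forming collagen of soft tissue, at 25224, 17879, 26216 and 19844 against 50911, 37862 and 32406 (log2 fold change -0.85 ± 0.21, adjusted p = 0.0266), and Col6a1 to Col6a3 form the beaded filaments around cells. Col3a1 was also lost without DMEM replicate 2 or without replicate 2 or 4 in 4T1 CM (0.0529 to 0.136), Col4a5 without DMEM replicate 2 or replicate 1 or 2 in 4T1 CM (0.0628 to 0.139), Col5a1 without DMEM replicate 2 (0.0784) and Col6a3 without each DMEM library and replicates 1 and 2 in 4T1 CM (0.0503 to 0.196). Col1a1 and Col1a2, the chains of type I collagen, did not pass: Col1a1 gave 6724, 5843, 6536 and 5880.4 against 7775, 7772 and 9451 (log2 fold change -0.41 ± 0.16, adjusted p = 0.18) and Col1a2 40229.6, 34530.2, 36337 and 29372 against 50541, 47072 and 44403 (log2 fold change -0.44 ± 0.19, adjusted p = 0.235). The groups did not overlap for either. Without DMEM replicate 1, 5 of the 12 collagen genes were called.

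**Figure D3:**
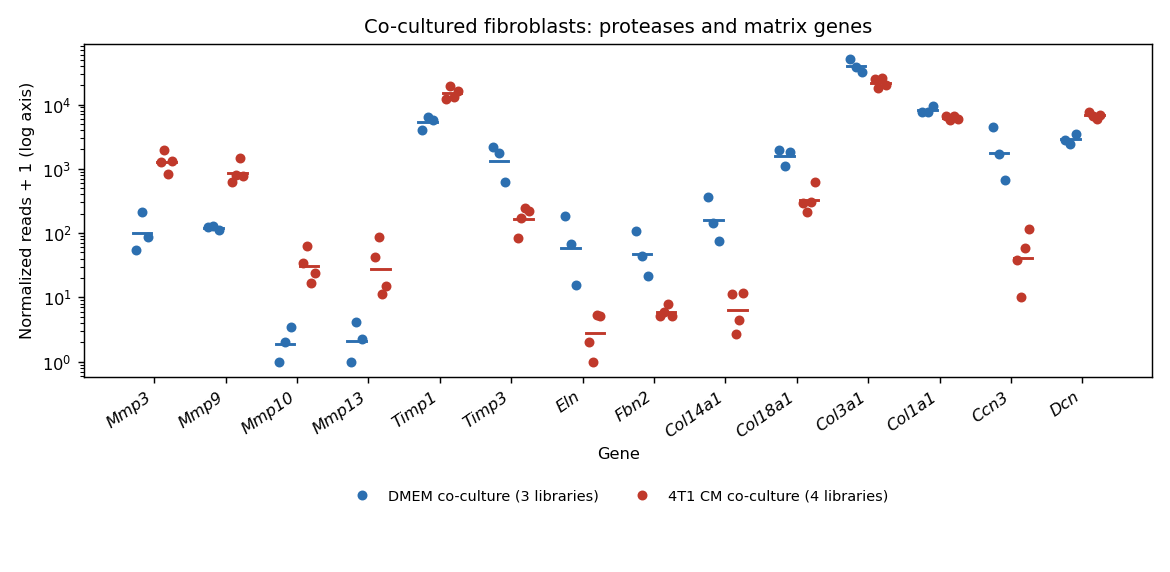
Normalized reads plus 1 (log axis) of 14 protease, inhibitor and matrix genes in each co-cultured fibroblast library, with lines at the mean of the log values. Mmp3, Mmp9, Mmp10, Mmp13, Timp1 and Dcn lie higher in 4T1 CM (right of each pair), and Timp3, Eln, Fbn2, Ccn3 and the collagens lie lower, Col1a1 without passing the test.

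Elastic fibre genes fell or did not pass: of 19 tested 5 fell and none rose (median -0.24), with 2 left without DMEM replicate 1. That is 26.3% lower, against 3.52% of all genes tested. Eln, the elastin gene, gave 1.04, 0, 4.34 and 4.17 against 185, 67.6 and 14.5 (log2 fold change -4.41 ± 0.75, adjusted p = 0.00393), and Fbn2, the second fibrillin, 4.18, 4.98, 6.95 and 4.17 against 106, 43.6 and 20.5 (log2 fold change -2.97 ± 0.51, adjusted p = 0.00394). In both genes DMEM replicate 1 was far above DMEM replicate 3, and all DMEM libraries were above all in 4T1 CM. Fbn1, the main microfibril protein, gave 1656, 1687, 1847 and 2470.0 against 4711, 4209 and 3269 (log2 fold change -1.09 ± 0.21, adjusted p = 0.00803), and Ltbp4 fell by -1.05 ± 0.21 (adjusted p = 0.0112). Efemp1, fibulin 3, fell as well. Fbn1, Ltbp4 and Efemp1 were not called without DMEM replicate 1 (0.0514, 0.0649 and 0.198), Efemp1 also not without DMEM replicate 3 (0.0579) or replicate 1 in 4T1 CM (0.0726).

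Small leucine-rich proteoglycans split. Of 20 proteoglycan and hyaluronan genes 4 rose and 4 fell (40% called, against 5.85% of all genes tested). Dcn, decorin, gave 7613, 6744, 5989 and 6761 against 2796, 2421 and 3445 (log2 fold change 1.24 ± 0.20, adjusted p = 0.00321). Ogn and Aspn, osteoglycin and asporin, fell from 22.4, 18.7 and 15.7 to 1.04, 0, 2.61 and 3.33 (log2 fold change -3.05 ± 0.53, adjusted p = 0.00469) and from 69.9, 46.8 and 21.7 to 1.04, 0.83, 3.48 and 11.7 (log2 fold change -3.48 ± 0.62, adjusted p = 0.00536). Podn, podocan, gave 16.7, 4.98, 53.9 and 47.5 against 526, 192 and 139 (log2 fold change -3.39 ± 0.65, adjusted p = 0.00815), and was lost without DMEM replicate 1 (0.055). Sdc1, Lum, Has1 and Vcan were called, but none held without each library in turn: Sdc1 was lost without replicate 1 or 3 in DMEM or 1 in 4T1 CM (0.0525 to 0.111), Vcan without replicate 1 or 2 of either medium (0.0764 to 0.186), Lum without DMEM replicate 2 or 3 or any of replicates 1, 3 and 4 in 4T1 CM (0.058 to 0.164), and Has1 without replicate 2 or 3 in DMEM or 2 or 4 in 4T1 CM (0.0519 to 0.105).

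Of 24 matricellular and adhesive glycoproteins 4 rose and 8 fell (50% called, against 5.85% of all genes tested, median -0.67). Ccn3, a CCN protein, had the largest fall among genes not macrophage-enriched (chromosome 15, 54745702 to 54754039, plus strand, mm10), at 37.6, 9.13, 58.2 and 114 against 4527, 1725 and 666 (log2 fold change -5.42 ± 0.68, adjusted p = 0.000481). Its DMEM libraries differed widely among themselves, and all were above the highest library in 4T1 CM. Fndc1 gave 15.7, 1.66, 25.2 and 12.5 against 544, 185 and 135 (log2 fold change -4.42 ± 0.64, adjusted p = 0.00141), and Matn2 fell by -1.64 ± 0.21 (adjusted p = 0.000648). Tnc, tenascin C, which is laid down in wounds, rose, at 3967, 4162, 3149 and 2976 against 1111, 1223 and 1713 (log2 fold change 1.41 ± 0.17, adjusted p = 0.000477). Spp1, osteopontin, gave 16617, 23023, 19798 and 24649 against 1669, 4645 and 6189 (log2 fold change 2.52 ± 0.34, adjusted p = 0.000772). Macrophages make Spp1 as well, and macrophage RNA at the estimated share would supply 56.1 normalized reads in 4T1 CM and 459.7 in DMEM, the group with the lower level.

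Fn1, fibronectin, gave 8509, 7137, 10842 and 11991 against 21421, 19638 and 11932 (log2 fold change -0.86 ± 0.23, adjusted p = 0.0384), and Postn, periostin, 1087, 860.3, 2012 and 2090.1 against 5199, 3682 and 2706 (log2 fold change -1.40 ± 0.30, adjusted p = 0.0136). DMEM replicate 3 was near the 4T1 CM libraries for Fn1. Fn1, Postn and Thbs3, which fell, were not called without DMEM replicate 1 (adjusted p = 0.194, 0.0827 and 0.0514). Neither were Thbs1 and Nid2, which rose (0.104 and 0.0514). Fn1 was also lost without DMEM replicate 2 or replicate 1 or 2 in 4T1 CM (0.1 to 0.194 over the 4), and Nid2 without DMEM replicate 2 (0.0552). Spon1 was lost without replicate 1 or 3 in DMEM or 1, 2 or 3 in 4T1 CM (0.0569 to 0.19). Ccn5 differed within 4T1 CM, at 10.4, 1.66, 209 and 138 against 862, 633 and 353 (log2 fold change -4.24 ± 1.11, adjusted p = 0.038), and was lost without any DMEM library or without replicate 1 in 4T1 CM (0.0641 to 0.162).

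Contractile genes fell in part: of 20 tested 4 fell (20%, against 3.52% of all genes tested) and none rose (median -0.37). Actg2, a smooth muscle actin, gave 26.1, 41.5, 33.02 and 34.2 against 127, 301 and 159 (log2 fold change -2.42 ± 0.37, adjusted p = 0.00212). Acta2, the smooth muscle actin by which myofibroblasts are recognised, gave 54.3, 48.2, 94.7 and 124 against 142, 275 and 160.5 (log2 fold change -1.30 ± 0.33, adjusted p = 0.0357). Acta2 was not called without any DMEM library or replicate 1 or 2 in 4T1 CM (0.0626 to 0.153), and neither was Itga11 (0.0638 to 0.231). Cnn1, calponin, was lost without DMEM replicate 2 or 3 or replicate 1 or 2 in 4T1 CM (0.0912 to 0.193). Tagln, transgelin, did not pass (log2 fold change -0.51 ± 0.24, adjusted p = 0.256). With macrophage RNA subtracted 2 of the 4 were called. Cnn1 and Itga11 were lost there at adjusted p = 0.0503 and 0.0513, against 0.0474 and 0.0481 before. Their log2 fold changes were -1.236 and -1.461 after subtraction, and -1.236 and -1.462 before it.

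Fibroblast identity genes moved both ways, 3 of 22 up and 6 down (40.9% called, against 5.85% of all genes tested, median -0.52). Clec3b, a marker of adventitial and universal fibroblasts, gave 1.04, 0.83, 0.869 and 3.33 against 226, 36.4 and 9.65 (log2 fold change -4.26 ± 0.75, adjusted p = 0.00496). Ly6c1 gave 44.9, 60.6, 222 and 298 against 1402, 948 and 428 (log2 fold change -2.82 ± 0.60, adjusted p = 0.0142) and was not called without DMEM replicate 1 or 2 (0.087 and 0.0535). Cd248, endosialin, fell by -0.79 ± 0.16 (adjusted p = 0.011) and was lost without DMEM replicate 1 (0.0645), as were Sema3c, lost also without DMEM replicate 2 or replicate 1 or 2 in 4T1 CM (0.063 to 0.222), and Cd34, lost also without the other DMEM libraries and replicates 1 and 2 in 4T1 CM (0.0543 to 0.262). Of the 3 that rose, Twist2, a mesenchymal transcription factor, gave 864, 1439, 1071 and 815 against 238, 335 and 251 (log2 fold change 1.91 ± 0.20, adjusted p = 0.000165) and held without each library. Pdpn, podoplanin, was lost without any DMEM library or replicate 2 in 4T1 CM (0.0522 to 0.106) and Penk without DMEM replicate 2 or 3 (0.06 to 0.0697).

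Several of the largest rises belong to none of these groups. Fmo2, a flavin monooxygenase, gave 241, 499.9, 189 and 227 against 8.06, 13.5 and 21.7 (log2 fold change 4.22 ± 0.37, adjusted p = 6.64e-05). Cck, the gene of the peptide hormone cholecystokinin, gave 1804, 4883, 4339.6 and 5139 against 127, 366 and 545 (log2 fold change 3.67 ± 0.52, adjusted p = 0.00122). Lmcd1, a LIM domain cofactor, gave 527, 456, 249 and 189 against 25.97, 33.3 and 38.6 (log2 fold change 3.30 ± 0.31, adjusted p = 9.34e-05), and Mapk13, the p38δ kinase, 237, 421, 239.8 and 155 against 15.2, 32.2 and 33.8 (log2 fold change 3.22 ± 0.37, adjusted p = 0.000331). Krt23, a keratin, was at 1.04 or below in DMEM and at 46.98, 43.2, 13.9 and 10.00 in 4T1 CM (log2 fold change 3.95 ± 0.58, adjusted p = 0.00141). Fam110c rose by 3.22 ± 0.54 (adjusted p = 0.0037). No overlap between media was part of the rule that picked these 6 genes. Hsd3b6, a steroid dehydrogenase, was high in replicates 3 and 4 only, at 9.40, 10.8, 146 and 95.8 against 0, 0 and 6.03 (log2 fold change 4.25 ± 1.16, adjusted p = 0.0461), and was not called without either of these or without DMEM replicate 1 or 2 (0.0914 to 0.197).

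The haem oxygenase gene Hmox1, whose enzyme breaks down haem (chromosome 8, 75093621 to 75100589, plus strand, mm10), rose in the 4 co-cultures in 4T1 CM to 3213, 3438, 3650.5 and 4099 against 889, 1143 and 873 (log2 fold change 1.90 ± 0.18, adjusted p = 9.34e-05). The list of oxidative stress genes around the factor NRF2 holds 25 genes tested, Hmox1 among them. Of the 25, 4 rose (16%, against 2.33% of all genes tested) and none fell. A positive log2 fold change was seen in 22 (median 0.45), against 6086 of the 12401 genes tested. Blvrb, biliverdin reductase B, which acts after haem oxygenase, gave 966, 987, 749 and 1155 against 350.2, 266 and 585 (log2 fold change 1.33 ± 0.24, adjusted p = 0.0051). G6pdx and Nqo1 rose by 0.45 ± 0.10 (adjusted p = 0.0188) and 1.67 ± 0.44 (adjusted p = 0.0406). G6pdx was lost without DMEM replicate 2 or 3 or replicate 1 in 4T1 CM (0.0543 to 0.0661), and Nqo1, the quinone reductase often read as the NRF2 target, without DMEM replicate 1 or 3 or replicate 3 or 4 in 4T1 CM (0.0834 to 0.202). Of 22 lysosome genes 1 was called (4.55%, against 5.85% of all genes tested). It was Ctsh, cathepsin H, at 1566, 1489, 1377 and 1559 against 584, 754 and 783 (log2 fold change 1.09 ± 0.13, adjusted p = 0.000477).

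Basic metabolic and growth programmes gave few or no calls. By limma none of 27 glycolysis and hypoxia genes, 16 chaperones of the endoplasmic reticulum, 23 cholesterol synthesis genes, 80 respiratory chain genes and 81 ribosomal protein genes was called, with medians of 0.04, -0.19, -0.24, -0.04 and -0.10. At an unadjusted p under 0.05 the counts in the same order were 6, 4, 6, 5 and 1, and neither edgeR nor DESeq2 called any of them. The 28 interferon response genes and 18 MHC class I genes also gave no call (2 of each list at an unadjusted p under 0.05), although edgeR and DESeq2 each called 1 interferon gene lower and no MHC gene. Replicates in 4T1 CM differed here: Isg15 was at 456, 282, 1608 and 970.5 against 612, 648 and 561 in DMEM, and Bst2 at 571, 437, 1695 and 1346 against 519, 515 and 472. Of 35 cell cycle genes 1 was called (2.86%, against 5.85% of all genes tested). It was Cdkn1a, the inhibitor p21, which rose by 0.69 ± 0.18 (adjusted p = 0.0323) and was lost without replicate 1 or 3 in DMEM or 1 or 2 in 4T1 CM (0.0854 to 0.16). Of 26 ATF4 and amino acid genes 1 was called (3.85%, against 5.85% of all genes tested). It was Slc1a4, which fell and was lost without replicate 1 or 2 of either medium (0.065 to 0.153).

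**Figure D4:**
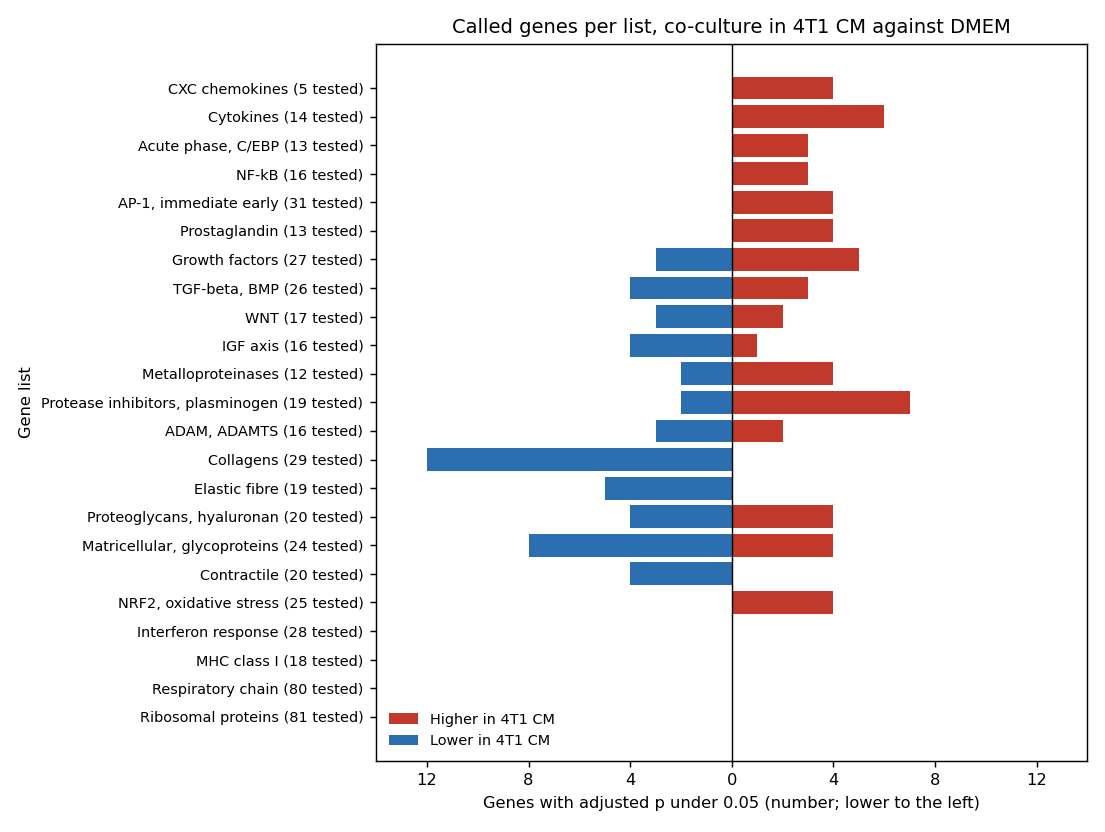
Number of genes called higher (right, red) and lower (left, blue) in 4T1 CM for 23 gene lists, with the number tested in brackets. CXC chemokine, cytokine and prostaglandin lists have calls to the right alone, collagen, elastic fibre and contractile lists to the left alone, and the 4 lists at the bottom have none.

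Schwann cell and endothelial markers were lower in the co-cultures in 4T1 CM, and other cell types gave fewer calls. All 12 Schwann cell and glial markers tested were called lower (median -3.51), and their sum was 27.1, 64.8, 306 and 1068 normalized reads in 4T1 CM and 2544, 1483 and 3151 in DMEM. Sox10, the transcription factor that defines the lineage, gave 4.18, 14.9, 112 and 327 against 877, 523 and 1129 (log2 fold change -4.26 ± 1.01, adjusted p = 0.0239), and was not called without any DMEM library or replicate 2 in 4T1 CM (0.0521 to 0.0965). Without DMEM replicate 1, 1 of the 12 was called. In fibroblasts cultured without macrophages 11 of the 12 were also called lower in 4T1 CM (median -5.03). Of 15 endothelial markers 9 were lower (median -2.71), and 3 that define the lineage were near 0 in 4T1 CM: Pecam1 at 4.18, 1.66, 0 and 0 against 86.9, 27.02 and 34.99 (log2 fold change -4.53 ± 0.67, adjusted p = 0.00166), Cdh5 at 2.09, 0, 0 and 0 against 68.1, 17.7 and 13.3 (log2 fold change -4.32 ± 0.65, adjusted p = 0.00195) and Robo4 at 1.04, 0, 0 and 0 against 47.5, 14.5 and 14.5 (log2 fold change -4.25 ± 0.59, adjusted p = 0.000966). Without DMEM replicate 1, 5 of the 9 were called. In mono-culture 1 of the 15 endothelial markers was called lower and 1 higher (median -0.98). Of 16 skeletal muscle markers Tnnt3 and Des were lower. Tnnt3 was lost without any DMEM library (0.0632 to 0.0756) and Des without DMEM replicate 2 or 3 or replicate 1, 3 or 4 in 4T1 CM (0.0633 to 0.136). The muscle sum was 386 to 736 normalized reads in 4T1 CM against 1226 to 2228 in DMEM. Tnmd, a gene of tendon cells, was at 0, 0, 0 and 1.67 against 103, 47.8 and 3.62 (log2 fold change -4.49 ± 0.81, adjusted p = 0.00592). Of 6 mural markers 2 and of 3 mesothelial markers 1 were called lower. None of 5 epithelial markers was called by limma, edgeR or DESeq2, with 3 at an unadjusted p under 0.05. The part of these cells in the falls of matrix and growth factor genes above was not tested.

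Fcrls and Lcp1 were among the macrophage-enriched genes with the largest falls. Fcrls gave 1.04, 1.66, 0 and 0 against 41.2, 55.1 and 86.9 (log2 fold change -5.28 ± 0.52, adjusted p = 0.0001), and Lcp1, a leukocyte actin-bundling protein, 2.09, 14.1, 0 and 0 against 45.7, 51.96 and 91.7 (log2 fold change -4.55 ± 0.80, adjusted p = 0.00472). For the complement genes C1qa, C1qb and C1qc macrophage RNA at the estimated share would supply 308, 320.3 and 212 of 344, 295 and 212 normalized reads in DMEM. C1qa and C1qc were not called without any 1 of the DMEM libraries (0.0565 to 0.0632 and 0.0537 to 0.0852), nor C1qb without DMEM replicate 3 (0.0564). With this macrophage part subtracted from each library, 655 genes were called in place of 725, 301 higher and 354 lower. Apoe, which carries lipids and is made by both cell types, gave 393, 514, 249 and 287 against 2516, 2646 and 4856 (log2 fold change -3.20 ± 0.28, adjusted p = 6.64e-05), of which macrophage RNA would supply 131 of the mean in 4T1 CM and 2103 in DMEM. Of the 7 macrophage-enriched genes that rose, Slfn2 and Cxcl2 met the naming rule, and Slfn2 was lost without 5 of the 7 libraries, all but replicate 3 of either medium (0.0519 to 0.18).

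The response to 4T1 CM was set beside that of fibroblasts cultured without macrophages, where 1648 genes (13.3%) were called, 789 higher (6.36%) and 859 lower (6.93%). The mono-culture comparison rests on 2 against 3 libraries, and the cultures share no library with the co-cultures. Of the 289 genes higher in co-culture 186 were also called higher in mono-culture, and of the 436 lower ones 243 were also called lower, while 4 genes called lower in co-culture were called higher in mono-culture. A test of the difference between the 2 changes called 18 genes (0.145%), 4 with a higher (0.0323%) and 14 with a lower change (0.113%) in co-culture. Without replicate 1 of the mono-culture in 4T1 CM, of the 12 genes named below only Mmp9 and Csf1r were called (the other 10 had adjusted p = 0.129 to 0.242). Calls of this test depended on single libraries: leaving out 1 gave 2 to 197 calls. The count was 197 without replicate 2 of the mono-culture in 4T1 CM, 73 without replicate 2 of the co-culture in 4T1 CM, 2 without replicate 1 of the mono-culture in 4T1 CM, replicate 1 or 3 of that in DMEM or replicate 2 of the co-culture in DMEM, and 4 without replicate 1 or 3 of the latter.

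Mmp9 was the clearest of these. It rose by 2.84 in co-culture and by 6.61 ± 0.29 (adjusted p = 2.52e-08) in mono-culture, a difference of -3.77 ± 0.37 (adjusted p = 0.00115), and this call held under every alternative and without each library in turn. The mono-cultures stood at 1303 and 1721 normalized reads in 4T1 CM and 11.8, 16.2 and 15.4 in DMEM, so the co-cultures in DMEM stood higher, at 123, 129.9 and 109.8. Complement C3 went from 63.9, 64.97 and 43.9 to 754 and 861 in mono-culture, a change of 3.81 ± 0.43 (adjusted p = 0.000175), but stood at 758, 339 and 197 in DMEM and 382, 272, 627 and 405 in 4T1 CM in co-culture, a change of 0.12 ± 0.36 (adjusted p = 0.906); the difference was -3.68 ± 0.56 (adjusted p = 0.0283). For Nid2, a basement membrane nidogen, the rise was 1.15 in co-culture and 3.38 in mono-culture (difference -2.23 ± 0.37 (adjusted p = 0.0318)). Beside that mono-culture library, C3 was lost without replicate 1 or 3 of the mono-culture in DMEM or replicate 2 of the co-culture in DMEM (0.0563 to 0.0835), and Nid2 without these or either other co-culture in DMEM (0.0563 to 0.106). Hmox1 ran the other way: its change in mono-culture was 0.25 ± 0.22 (adjusted p = 0.486), from 2801, 1655 and 2130.0 to 3009 and 2158, and the difference was 1.65 ± 0.28 (adjusted p = 0.0342). The Hmox1 difference was not called without any of 8 libraries: the 3 co-cultures in DMEM, replicates 3 and 4 of the co-culture in 4T1 CM, replicate 1 of the mono-culture in 4T1 CM and replicates 1 and 3 of that in DMEM (adjusted p = 0.0563 to 0.129).

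**Figure D5:**
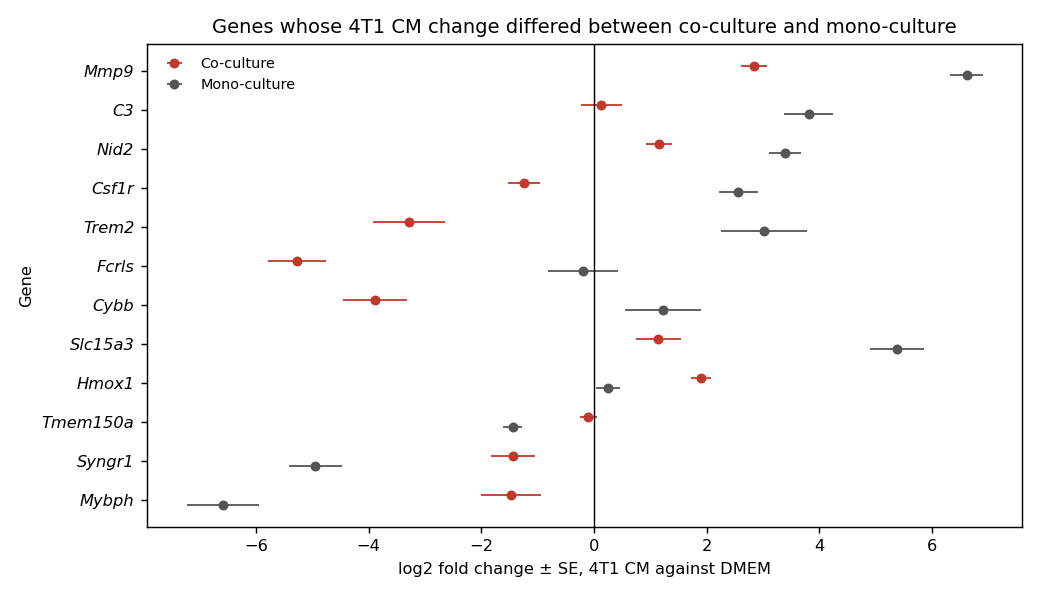
Log2 fold change ± SE of 4T1 CM against DMEM in co-culture (red) and mono-culture (grey) for 12 genes whose changes differed by an adjusted p under 0.05. Mmp9 rose in both and more in mono-culture, Hmox1 rose in co-culture, and the macrophage markers Trem2, Fcrls, Cybb and Csf1r fell in co-culture. In mono-culture none of these markers fell by the test, and Trem2, Cybb and Csf1r had positive changes.

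Of the other named differences 4 lay in macrophage genes. Trem2, Fcrls, Cybb and Csf1r, which are macrophage markers or macrophage genes, differed by -6.30, -5.08, -5.11 and -3.81 (adjusted p = 0.0283, 0.0283, 0.0342 and 0.00462). In co-culture Trem2, Cybb and Csf1r changed by -3.28, -3.89 and -1.25, so part of each difference was a rise in mono-culture. Of 25 macrophage markers tested, 3 were called higher and none lower in mono-culture (median log2 change 1.24). Csf1r, the receptor of Csf1, stood at 97.1, 103, 54.7 and 49.98 against 131, 154 and 258 in co-culture (log2 fold change -1.25 ± 0.29, adjusted p = 0.0205), and macrophage RNA would supply 134 of its 181 normalized reads in DMEM. Its fall was not called without DMEM replicate 3 (0.0867). Slc15a3, a transporter of lysosomes, differed by -4.23 ± 0.62 (adjusted p = 0.0283), and Tmem150a and Syngr1 by 1.35 and 3.51. Mybph, a myosin-binding protein of muscle, differed by 5.12 ± 0.83 (adjusted p = 0.0301), from 48.6, 288 and 61.6 to 0 and 0 in mono-culture and from 73.4, 99.8 and 55.5 to 11.5, 32.4, 35.6 and 34.2 in co-culture. Apart from Csf1r, each of these differences was lost on leaving out some single libraries, from 4 of the 12 for Slc15a3 to 9 for Syngr1 and Cybb. Some lists, picked here after their counts were seen, had different counts in the 2 cultures. Interferon response had 8 of 28 higher in mono-culture and 0 in co-culture, and MHC class I 7 of 18 and 0. Skeletal muscle markers had 13 of 16 lower in mono-culture and 2 in co-culture. Of 29 collagens 4 were higher and 5 lower in mono-culture, against 0 and 12 in co-culture. Whether these lists as a whole differ between the cultures was not tested. Gene by gene, the test of the difference called 1 of 28 interferon response, 1 of 18 MHC class I and 1 of 16 skeletal muscle genes. It called 0 of 29 collagens. A gene called in 1 culture alone need not differ between the cultures.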

How the data were processed

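The authors deposited a normalized signal per gene for the fibroblasts and raw read counts per gene for the macrophages. Per the submitters' processing notes, HTSeq, bcl2fastq and STAR 2.4.2a were used with mm10, though the role of each is not stated. Every deposited fibroblast value is a whole number of reads (100% within 0.001 reads) divided by 1 factor per library, so depth and counts were recovered. All 12948 genes in that table reach 6 reads or more in some library, and rarer genes are not covered. 3 macrophage columns matched to no label were left out.

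The 12 fibroblast libraries entered 1 limma 3.58.1 fit (R 4.3.3, trend, two-sided) on log2 of the value plus 1, for the 12401 genes that reached 5 in 2 or more libraries. Tested on simulated data of this comparison (12401 genes, 200 changed), the fit recovered 91.5% of 4-fold and 50% of 2-fold changes. Beside the 183 and 100 genes recovered, it falsely called 7 and 11 unchanged genes. The changed genes had a mean of at least 10 normalized reads, so recovery at lower levels was not measured. Simulated libraries were drawn independently, without the split between replicates 1 and 2 and replicates 3 and 4 in 4T1 CM. Macrophage levels as CPM, computed from the deposited counts, gave the macrophage share, set across tables normalized separately. Alternatives were edgeR 4.0.16 and DESeq2 1.42.0 on recovered reads (edgeR called 741 genes), other pseudocounts, filters and normalizations, subtraction of macrophage RNA, a fit of the 7 co-culture libraries, a replicate block and leaving out each library. The members and lists were chosen with earlier results of these data known. The κB consensus was chosen after a first pattern had been searched. Genes named as largest changes had an adjusted p under 0.05, a log2 change of 1 or more either way, 20 or more normalized reads on average in the higher group, no overlap and no Gm or Rik symbol: up to 15 each way, and 5 each way of macrophage-enriched genes. From each list came up to 5 members with the smallest adjusted p and up to 3 abundant ones that did not pass, and other members could be named with the list's count. For the difference between cultures 6 genes each way were taken. Promoters are from RefSeq (GRCm38.p6), and gene positions from GENCODE vM21 on mm10. Some members counted in the lists are not reported here by name.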

Additional observations from a re-analysis of the deposited data

Results flagged for a closer look

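In 11 of 169 genes checked, 1 of the 4 co-cultures in 4T1 CM stood apart from the other 3, its gap to the nearest library as a share of the group's range being above Dixon's 95% critical value; chance gives about 1 in 20. The share was 1.00 for Ccl12, Cdh5, Cybb, Robo4 and Tnmd, where the other 3 libraries were at 0. There the zeros fix the share at 1.00 whatever the remaining value, so the 1 in 20 does not apply to these flags. It was 0.915 for Clec3b, where replicate 4 was high at 3.33 normalized reads, and 0.852 for Lcp1, where replicate 2 was high at 14.1. Replicate 2 stood high for Pdpn (0.980) and Fmo2 (0.831), replicate 4 high for Col27a1 (0.881) and replicate 1 low for Mybph (0.866).

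For 12 of the genes named, the change with 4T1 CM differed between co-culture and mono-culture by the limma test of the difference, given here as the log2 change in co-culture minus that in mono-culture. It was lower in co-culture for Trem2 (-6.30), Cybb (-5.11), Fcrls (-5.08), Slc15a3 (-4.23), Csf1r (-3.81), Mmp9 (-3.77), C3 (-3.68) and Nid2 (-2.23). It was higher for Mybph (5.12), Syngr1 (3.51), Hmox1 (1.65) and Tmem150a (1.35). Trem2, Cybb, Fcrls and Csf1r are macrophage genes, and the macrophage share was lower in the co-cultures in 4T1 CM. The changes of Trem2, Cybb and Csf1r in mono-culture were positive, which adds to their differences. With macrophage RNA subtracted, 16 genes differed in place of 18.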

How the results depend on the processing

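The 725 calls became 437 with only the 7 co-culture libraries fitted, and 258 (without replicate 1 in DMEM) to 818 (without replicate 4 in 4T1 CM) on leaving out 1 co-culture library; they were 470 without replicate 1 in 4T1 CM. The other settings gave 565 (stricter filter) to 848 (DESeq2). The 18 differences between cultures became 11 with edgeR, 138 with DESeq2, 1 with the replicate block and 2 to 197 on leaving out 1 library. The block gave 682 calls in co-culture, and since replicate 4 occurs in 1 group it in effect drops that library. Same-numbered libraries did not deviate together in every pair (correlations -0.0952, 0.171 and -0.241), so the numbers were not taken as pairs. The macrophage share was lower in 4T1 CM under each alternative, by 0.621 to 1.28 percentage points. Of 153 named genes called, 68 were called in all settings in which they were tested, leave-one-out included, and 85 were lost in at least 1. Some of the 68 had no result in every setting: Fcrls and Cybb had none with macrophage RNA subtracted. The 1 that changed sign was Csf1r, at 0.47 on the log2 scale with macrophage RNA subtracted (adjusted p = 0.268). Of genes not called, C3 changed sign with edgeR (-0.0273) and DESeq2 (-0.0348) and ran from -0.33 to 0.64 on leaving out 1 library, and Isg15 changed sign with the block (-0.0353) and ran from -0.28 to 0.56; the cause was not tested. Leaving out mono-culture libraries for the co-culture comparison was added after seeing the data. Depth limits genes with few reads, and 2-fold changes were recovered only in part.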
